A study of Mus musculus with 6 samples.

Results

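The Ly6 surface antigens described here are 5 mouse genes, Ly6a, Ly6c1, Ly6c2, Ly6d and Ly6e, measured in whole liver of the strains BKS and NZO. They were chosen from 18196 named genes by symbol, and with their difference between these same strains already known. Their strain values are therefore given as a description, with no p-value printed for any of them. Counts of those called, or with an unadjusted p below 0.05, stand beside the share of all probe sets. The array reads them through 5 of its 45037 non-control probe sets. Ly6a and Ly6d have 1 probe set each, Ly6e has 2, and Ly6c1 and Ly6c2 share 1, so those 2 genes cannot be told apart. The Ly6a probe set takes its name from the platform's symbol and not from the annotation table used for the others. All 5 probe sets averaged at least 6 on the log2 scale over the 6 arrays. Ly6d did so only through NZO, with means of 5.13 in BKS and 7.37 in NZO.

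Ly6 proteins are small extracellular proteins folded around disulfide bonds, and most are tied to the cell surface by a glycosylphosphatidylinositol (GPI) lipid anchor. Many of their genes lie next to each other on mouse chromosome 15, and several are known to respond to interferons. Ly6a, also called Sca-1, marks blood stem cells and is found on endothelium and activated lymphocytes. Ly6c is carried by monocytes, by some T cells and by endothelium. In liver, endothelium, resident macrophages and passing leukocytes are therefore candidate carriers of these antigens, beside hepatocytes.

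One group was C57BL/KS (BKS) mice, titled as wild type, and the other was New Zealand Obese (NZO) mice, an inbred strain that becomes obese and diabetic. All were males of 18 weeks on standard chow, with liver snap frozen after CO2 killing, and each strain had 3 arrays made from 8 ug of total RNA each. No allele or treatment separates the groups in the labels, only strain, and the series' design text calls the mice littermates without saying which. Nothing states that each array is a separate animal, so the spread between arrays may in part be technical. Values are log2 RMA expression, a background-corrected and quantile-normalized signal per probe set without detection calls.

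Array medians lay between 5.08 and 5.22. The arrays did not share a common distribution after this processing. NZO replicate 1 had an SD of 1.95 over all probe sets and a highest value of 14.20. The other arrays had SDs of 2.14 to 2.28 and highest values of 15.11 to 15.20. Hepatocyte genes were high as the tissue label implies, with albumin (Alb) at 14.83 in BKS and 14.62 in NZO. The array titled number 1 in each strain had the lowest mean of its strain over 18 spiked-in hybridization control probe sets. That mean was 9.29 for BKS replicate 1, 8.17 for NZO replicate 1, and 10.2 to 11.5 for the remaining 4 arrays. Beta-actin 3' minus 5' signal, which grows with RNA or cDNA truncation, was 1.72 to 2.33 in BKS and 1.29 to 1.39 in NZO. This measure of RNA quality moved with strain, and its part in the Ly6 values was not tested. Each Ly6 difference is given below with all arrays and also without the number 1 arrays. The labels name no batch, so grouping these 2 arrays rests only on their title number and the control values above. Fits below with the number 1 arrays as a block assume a shift common to both arrays, which was not tested.

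Because a single probe set reports both Ly6c genes, their start regions are shown to compare them. The windows are from RefSeq on GRCm38.p6, minus strand, from 250 bases before to 50 bases after the first of the 2 starts listed for each gene, at chr15:75048788-75049087 for Ly6c1 and chr15:75111922-75112221 for Ly6c2. Capitals mark the letters TATAAA, the core of a TATA box.
Ly6c1: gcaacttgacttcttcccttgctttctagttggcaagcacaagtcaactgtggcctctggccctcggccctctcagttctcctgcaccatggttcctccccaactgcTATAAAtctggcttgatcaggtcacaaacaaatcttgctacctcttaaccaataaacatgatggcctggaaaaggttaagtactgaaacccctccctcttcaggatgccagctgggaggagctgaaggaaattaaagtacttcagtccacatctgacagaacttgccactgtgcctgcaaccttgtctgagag
Ly6c2: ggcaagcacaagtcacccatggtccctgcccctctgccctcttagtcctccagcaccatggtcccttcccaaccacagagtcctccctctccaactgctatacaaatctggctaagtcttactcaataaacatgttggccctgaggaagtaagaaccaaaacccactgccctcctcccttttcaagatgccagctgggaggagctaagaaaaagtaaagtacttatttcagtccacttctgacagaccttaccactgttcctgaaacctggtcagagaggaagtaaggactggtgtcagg
In a global alignment 208 of 266 aligned bases were identical (78.2%), and the pairs of Ly6c1 and Ly6c2 windows that involve the other starts gave 53.2%, 80.2% and 88.4%. TATAAA was found in the Ly6c1 window shown, beginning at -143 from the start, and not in the Ly6c2 window or those of the other starts, and 13.6% of 32841 mouse start windows of this length hold it on either strand. The same Ly6c1 window alone also held CCAAT, at -95 from the start (37.4% of windows). None of the 4 windows held TTCNNNGAA, the gamma-activated site bound by STAT dimers (8.30% of windows), or GAAANNGAA, a core of the interferon-stimulated response element (8.56% of windows), on either strand. Those letters are simply not in these windows of the mouse reference assembly. Sites outside the windows were not searched, and BKS and NZO sequences were not examined. The sequence table held 2 of the 5 genes.

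Ly6a had the widest strain difference of the 5 probe sets. Its signal was 8.37, 7.74 and 7.86 in BKS replicates 1 to 3 and 11.52, 12.91 and 12.94 in NZO replicates 1 to 3. Every NZO array lay above every BKS array, with 3.15 between the lowest NZO and the highest BKS value. The strain means were 7.99 ± 0.33 (SD, n = 3) in BKS and 12.46 ± 0.81 (SD, n = 3) in NZO. The log2 difference, NZO minus BKS, was 4.46 with a standard error of 0.40, or 22.1-fold. Among all 45037 probe sets this was the difference of rank 6 from the top. NZO replicate 1 was the low array of its strain, and BKS replicate 1 the high one of its own. The 2 number 1 arrays differed by 3.15 on the log2 scale (8.85-fold), and the other 2 against 2 arrays by 5.12 (34.9-fold).

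The probe set shared by Ly6c1 and Ly6c2 also had every NZO array above every BKS array. It read 6.60, 6.16 and 6.17 in BKS replicates 1 to 3 and 8.90, 10.00 and 9.23 in NZO replicates 1 to 3. NZO replicate 1 was again the low NZO array and BKS replicate 1 the high BKS array, with a gap of 2.30 between them. The means were 6.31 ± 0.25 (SD, n = 3) and 9.38 ± 0.56 (SD, n = 3), a log2 difference of 3.07 with a standard error of 0.29 (8.39-fold), rank 20 among all probe sets. The number 1 arrays differed by 2.30 and the other 4 by 3.45. Whether Ly6c1, the form of endothelium, or Ly6c2, the form of monocytes, gave this signal cannot be told apart on this array.

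Ly6d, known as a surface marker of early B-lineage cells and of squamous epithelium, lay near the array medians in BKS. It read 5.36, 4.71 and 5.33 in BKS replicates 1 to 3 and 6.88, 8.04 and 7.18 in NZO replicates 1 to 3. The strains were again separate, by a gap of 1.52. Means of 5.13 ± 0.36 (SD, n = 3) and 7.37 ± 0.60 (SD, n = 3) gave a log2 difference of 2.23 with a standard error of 0.33 (4.71-fold), rank 53. The number 1 arrays differed by 1.52 and the other 4 by 2.59.

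Ly6e, a broadly expressed member known for its effect on virus entry into cells, did not separate the strains. Its probe set with the higher mean read 12.02, 12.12 and 12.38 in BKS replicates 1 to 3 and 11.32, 13.15 and 13.20 in NZO replicates 1 to 3. NZO replicates 2 and 3 lay above all BKS arrays, and NZO replicate 1 lay below all of them. The means were 12.18 ± 0.18 (SD, n = 3) and 12.56 ± 1.07 (SD, n = 3), with a log2 difference of 0.38 and a standard error of 0.49. The number 1 arrays differed by -0.70 and the other 4 by 0.92, so the direction turned with the arrays used. The _s_at suffix of its platform name marks probes that match more than one transcript, and the reference annotation lists a Ly6e pseudogene, so part of this signal may come from elsewhere.

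The other Ly6e probe set, of lower mean, differed in where its spread lay. It read 8.11, 7.11 and 6.57 in BKS replicates 1 to 3 and 7.82, 8.39 and 8.35 in NZO replicates 1 to 3. BKS replicate 1 lay above NZO replicate 1, so the strains overlapped here too. The means were 7.27 ± 0.78 (SD, n = 3) and 8.19 ± 0.32 (SD, n = 3), with a log2 difference of 0.92 and a standard error of 0.39 (1.89-fold). The number 1 arrays differed by -0.29 and the other 4 by 1.53. Both Ly6e probe sets therefore had the number 1 arrays on one side of 0 and the other 4 on the opposite side.

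**Figure D1:**
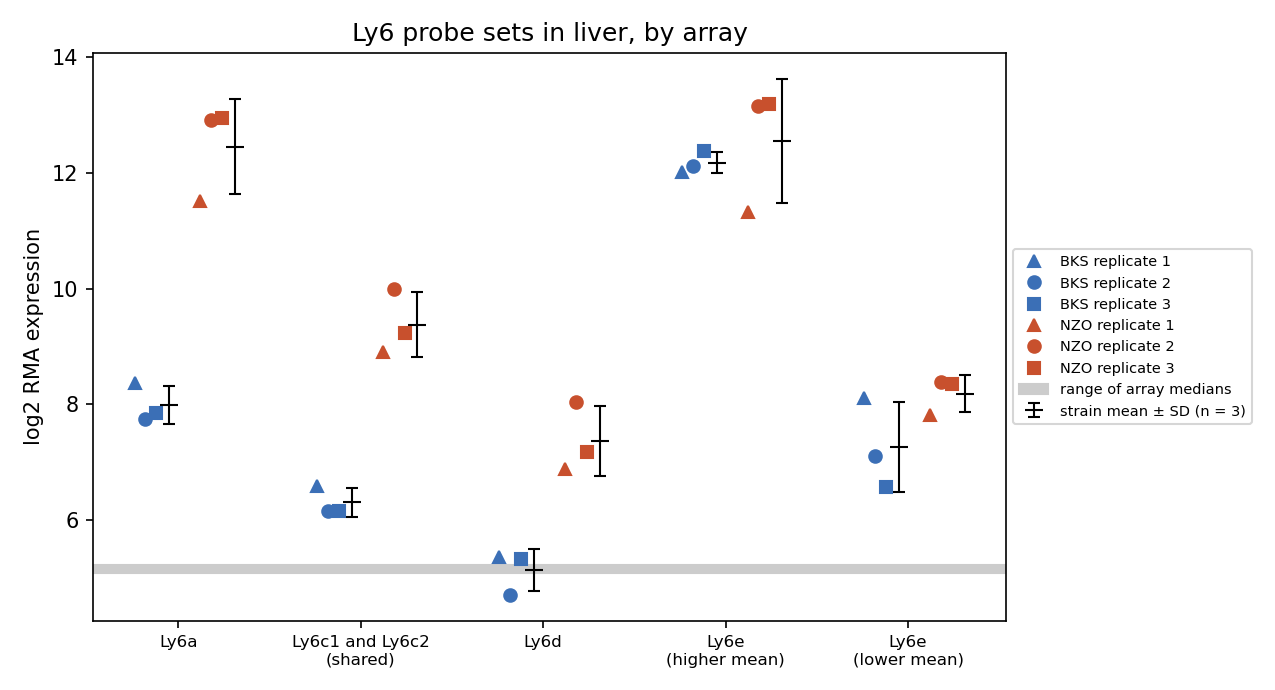
Log2 RMA expression (vertical axis) of the 5 Ly6 probe sets on each of the 6 arrays, BKS in blue and NZO in orange, with black bars for the strain mean ± SD (n = 3) and a grey band for the range of array medians, 5.08 to 5.22. The strains are separate for Ly6a, Ly6c1 and Ly6c2, and Ly6d, and overlap at both Ly6e probe sets, where the triangles (replicate 1) of the 2 strains lie in the reverse order.

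Over the 5 probe sets, 3 had all NZO arrays above all BKS arrays, a pattern found in 6.83% of all probe sets. In the fit across all probe sets (limma, Benjamini-Hochberg adjustment), 2 of the 5 were called higher in NZO at an adjusted p below 0.05, the Ly6a and the Ly6c probe sets, where 0.191% of all probe sets were called in that direction. None was called lower (0.233% of all were), and 4 of the 5 had an unadjusted p below 0.05, as had 10.1% of all probe sets. As the genes were chosen for this contrast, nothing is read from these counts. Without BKS replicate 2, BKS replicate 3 or NZO replicate 3, 0 of the 5 were called by limma, and 3 had an unadjusted p below 0.05 in each case. The shares of all probe sets called higher were then 0.0311%, 0.0333% and 0.04%, and 5.49%, 7.42% and 7.85% had an unadjusted p below 0.05. Among the 2 against 2 arrays without the number 1 arrays, all 5 were called, and so were 1.38% of all probe sets. With 1 array left out, the Ly6a difference ran from 4.22 to 4.93, that of Ly6c from 2.76 to 3.31 and that of Ly6d from 1.90 to 2.48 on the log2 scale. Those of the higher- and lower-mean Ly6e probe sets ran from 0.06 to 1.00 and from 0.57 to 1.34.

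NZO replicate 1 was the lowest NZO array at all 5 probe sets, and it was the lowest at 47.2% of all probe sets. BKS replicate 1 was the highest BKS array at 4 of the 5, and the highest at 38.6% of all. The NZO range was wider than the BKS range at Ly6a (1.43 against 0.63), Ly6c (1.10 against 0.43), Ly6d (1.16 against 0.65) and the higher-mean Ly6e probe set (1.87 against 0.36), and narrower at the lower-mean one (0.57 against 1.54). Across the 6 arrays the Ly6a signal correlated with that of Ly6c at Pearson's r = 0.988 and with Ly6d at 0.968. With the higher- and lower-mean Ly6e probe sets it correlated at 0.470 and 0.775, and the 2 Ly6e probe sets correlated with each other at 0.358. These 6 points share the strain split and the number 1 arrays, so the values only restate the array patterns above.

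**Figure D2:**
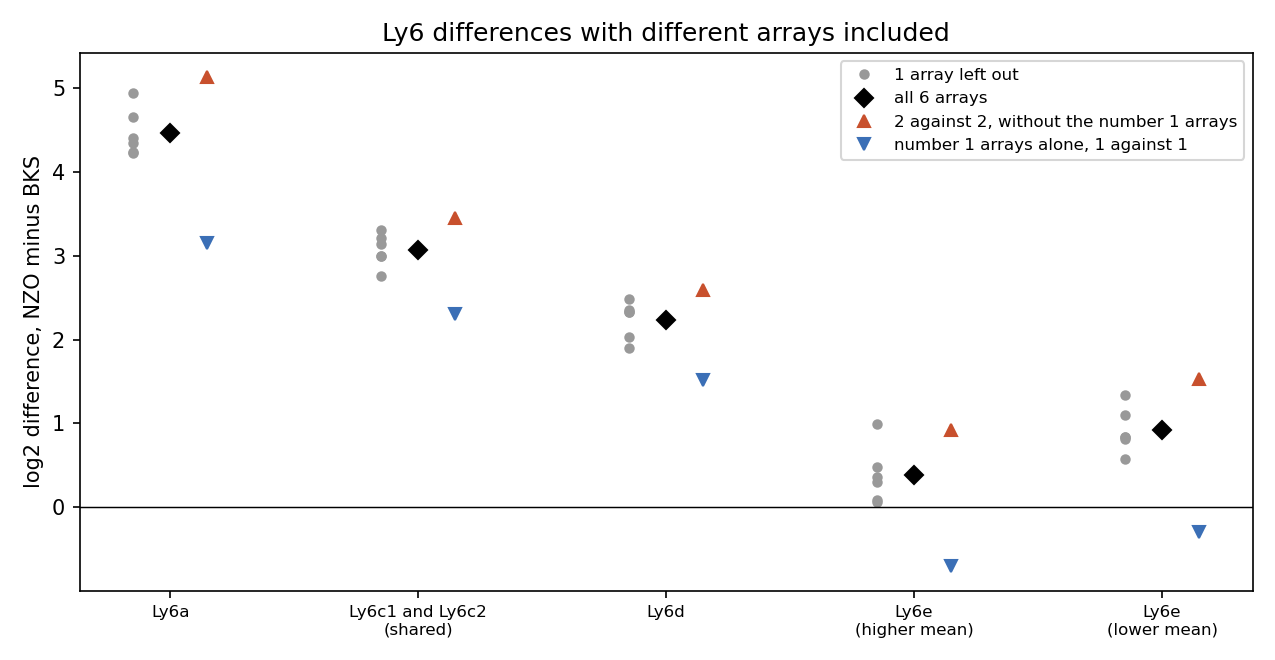
Log2 difference, NZO minus BKS (vertical axis), of each Ly6 probe set with all 6 arrays (diamonds), with 1 array left out (grey circles), without the number 1 arrays (upward triangles) and between the number 1 arrays alone (downward triangles). At Ly6a, Ly6c and Ly6d every point lies above 0, and at both Ly6e probe sets the number 1 arrays lie below 0, at -0.70 and -0.29.

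The measured genes around and between the 5, each by its brightest probe set, had differences between -0.86 and 0.52 on the log2 scale. The other probe set of Lynx1 gave 0.53 (limma, adjusted p = 0.353). On chromosome 15 the named protein-coding genes with a probe set inside the span from Ly6d to Ly6c2, and the 8 on each side of it, came to 22 genes beside the Ly6 genes described. None of the 22 was called in either direction (limma, adjusted p below 0.05), against 0.577% of 18195 genes, and 2 had an unadjusted p below 0.05, both higher. Of all genes 12.2% had such a p, 3.59% higher and 8.65% lower. The neighbours' median log2 difference was 0.12, with 16 above 0. Over all genes the median was -0.03 and 44.9% were above 0. The 2 with such a p were Ly6g2 (9.17 ± 0.29 in BKS and 9.69 ± 0.24 in NZO, SD, n = 3, log2 difference 0.52, adjusted p = 0.448) and Gpihbp1. Ly6i, which lies between Ly6e and Ly6a, was at 6.74 in BKS and 6.92 in NZO (log2 difference 0.18, adjusted p = 0.804). Ly6m on the other side of Ly6e was at 5.36 and 5.52 (log2 difference 0.16, adjusted p = 0.853). The lowest difference of the 22 was at Cyp11b1, an adrenal steroid hydroxylase, with -0.86, where the BKS arrays had an SD of 1.63 (adjusted p = 0.782). That value rests on BKS replicate 1, at 7.89 against 4.91 and 5.26 in the other BKS arrays, and was 0.07 without it. Ly6i and Ly6m were picked out for their place after their values were seen. Whether the probes match both strains' sequences was not tested, for these genes or for the 5.

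**Figure D3:**
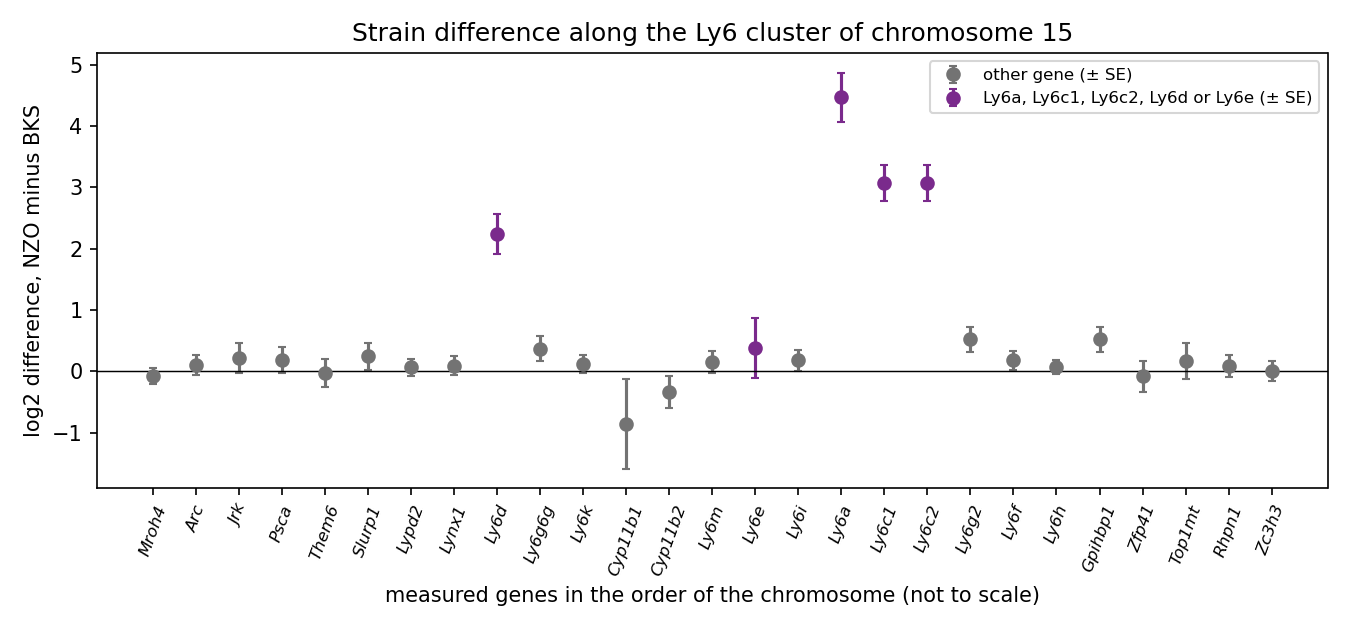
Log2 difference, NZO minus BKS, with its standard error (vertical axis) for measured genes in their order along chromosome 15, which is not to scale, each gene by its brightest probe set on average. Ly6c1 and Ly6c2 show the same shared probe set, and Ly6a (4.46), the Ly6c genes (3.07) and Ly6d (2.23) stand above the 22 other genes, which lie between -0.86 and 0.52.

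The wider Ly6/uPAR family, whose members share the same protein fold, had log2 differences between -0.18 and 0.52. Each gene is read here from its brightest probe set, and the other Lynx1 probe set gave 0.53 (limma, adjusted p = 0.353). Of 34 further members listed, 25 were measured and 9 were not analysed here, the neutrophil antigen Ly6g among the latter. None of the 25 was called in either direction (limma). At an unadjusted p below 0.05 there was 1, higher in NZO (12.2% of all genes had such a p). Their median log2 difference was 0.12, with 21 above 0. Over all genes the median was -0.03 and 44.9% were above 0. Of the 25, 7 averaged at least 6. Another 15 averaged below 5, under every array median, so low signal limits this count of directions. The smallest p belonged to Gpihbp1, the GPI-anchored protein that carries lipoprotein lipase across capillary endothelium, at 7.28 ± 0.08 in BKS and 7.80 ± 0.38 in NZO (SD, n = 3, log2 difference 0.52, standard error 0.21, adjusted p = 0.458). The next was Lypd5 at 4.87 and 5.12 (log2 difference 0.24, adjusted p = 0.594). Cd59a, a GPI-anchored inhibitor of complement that was well above the array medians, was at 10.50 and 10.45 (log2 difference -0.05, adjusted p = 0.975), and its difference was 0.28 without NZO replicate 1.

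Genes that build and attach the GPI anchor had log2 differences between -0.78 and 0.75. Of 30 listed, 29 were measured, and none was called (limma), with 4 higher and 3 lower at an unadjusted p below 0.05, against 12.2% of all genes. The median log2 difference was -0.20 and 9 of 29 were above 0, where 44.9% of all genes were. The smallest p belonged to Mppe1, which remodels the anchor after attachment, at 8.60 ± 0.12 in BKS and 7.98 ± 0.11 in NZO (SD, n = 3, log2 difference -0.62, adjusted p = 0.161). Pigl, an early enzyme of the anchor's synthesis, was at 7.63 and 6.91 (log2 difference -0.72, adjusted p = 0.199), and at 0.10 by its other probe set (adjusted p = 0.936).

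Interferon receptors and the factors they act through had a mean level of 8.03 to 8.20 on the BKS arrays and of 7.54, 8.11 and 8.01 on NZO replicates 1 to 3, so NZO replicate 1 was the low array. Of 16 genes from receptor to transcription factor, 15 were measured. None was called in either direction (limma), with 1 higher and 3 lower at an unadjusted p below 0.05 (12.2% of all genes had such a p), a median log2 difference of -0.28 and 11 below 0, where 55.1% of all genes were. Irf2, a repressor of interferon-responsive promoters, was at 8.87 ± 0.22 in BKS and 7.97 ± 0.44 in NZO (SD, n = 3, log2 difference -0.89, standard error 0.24, adjusted p = 0.261). It was called lower with the number 1 arrays as a block (adjusted p = 0.0258). Ifnar1, a subunit of the type I interferon receptor, was at 8.17 and 7.58 (log2 difference -0.59, adjusted p = 0.399), and its other probe set gave 0.25.

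Because Ly6 antigens mark several cell types, marker lists of 11 types were read on the same arrays. Of 114 marker genes none was called in either direction (limma), with 10 higher and 2 lower at an unadjusted p below 0.05. Over all genes 12.2% had such a p, 3.59% higher and 8.65% lower. In bulk tissue, fewer cells of a type and less RNA per cell cannot be told apart. All genes had a median of -0.03, and 44.9% were above 0. The list with the highest median was endothelium, at 0.33 on the log2 scale with 17 of 20 markers above 0. Its mean level was 6.43 to 6.70 on the BKS arrays and 6.60 to 7.24 on the NZO arrays, which overlap. Pecam1, the pan-endothelial adhesion molecule, was at 4.33 ± 0.06 in BKS and 5.04 ± 0.19 in NZO (SD, n = 3, log2 difference 0.71, adjusted p = 0.140, and 0.0455 with the number 1 arrays as a block). Both Pecam1 means lay below every array median, so this difference is read at low signal. Fcgr2b, an Fc receptor of liver sinusoidal endothelium, was at 8.17 ± 0.35 and 8.95 ± 0.16 (SD, n = 3, log2 difference 0.77, adjusted p = 0.241). The 4 other Fcgr2b probe sets gave log2 differences of 1.05 to 1.37. The part of these endothelial values in the Ly6 differences was not tested.

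Monocyte markers, 13 of 14 measured, had a median log2 difference of -0.03 with 5 above 0, where 44.9% of all genes were. Of the 13, only 4 averaged at least 6 and 7 averaged below 5, so low signal limits this median. Their mean level was 5.67 to 5.81 on the BKS arrays and 5.73 to 5.87 on the NZO arrays. Ccr2, the chemokine receptor that marks Ly6c-high monocytes, was at 7.39 in BKS and 7.57 in NZO (log2 difference 0.18, adjusted p = 0.917, and -0.21 without NZO replicate 1), a gene picked out for that role. The 2 with the smallest p were Treml4 at 4.52 and 5.23 (log2 difference 0.71, adjusted p = 0.505) and Ace at 7.37 and 7.77 (log2 difference 0.39, adjusted p = 0.573, and -0.03 by its other probe set). Kupffer cell markers, the resident macrophages of liver, had a median of 0.03 over 12 genes. Folr2 was at 6.54 and 6.98 (log2 difference 0.43, adjusted p = 0.356) and Vsig4 at 7.43 and 8.52 (log2 difference 1.08, adjusted p = 0.559). Vsig4 was called higher among the 2 against 2 arrays without the number 1 arrays, by 1.96 (adjusted p = 0.00734).

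Other leukocyte lists lay close to 0. The medians were 0.07 for 11 neutrophil genes, -0.01 for 12 T and NK cell genes, 0.09 for 12 B and plasma cell genes and 0.02 for 6 genes of plasmacytoid dendritic cells. In that order, 2, 3, 3 and 3 of these genes averaged at least 6 over the 6 arrays. Medians close to 0 from such low signal do not show that these cells were alike between the strains. The smallest p values belonged to the neutrophil genes Camp (log2 difference 0.37, adjusted p = 0.493) and Mmp9 (-0.27, adjusted p = 0.601, and -2.67e-05 by its other probe set). In T and NK cells they belonged to Ccr7 (0.30, adjusted p = 0.576) and Cd4 (-0.22, adjusted p = 0.716, and 0.28 by its other probe set), and in B and plasma cells to Vpreb3 (0.31, adjusted p = 0.448) and Ighm (-0.65, adjusted p = 0.639). The 10 other Ighm probe sets gave -0.23 to 0.10. For plasmacytoid dendritic cells they belonged to Bst2 (-0.83, adjusted p = 0.641, and 0.0254 with the number 1 arrays as a block) and Klk1 (0.20, adjusted p = 0.741). Bst2 is also induced by interferon in other cells.

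Among the remaining cells, 9 hepatocyte genes had a median of -0.27, 10 stellate cell and fibroblast genes 0.02, 5 cholangiocyte genes 0.07 and 4 adipocyte genes 0.18. The hepatocyte list averaged 12.96 to 12.99 on the BKS arrays and 12.3, 13.1 and 13.2 on NZO replicates 1 to 3, so NZO replicate 1 was the low array here as it was for the Ly6 genes. Ass1, of the urea cycle, was at 5.25 and 6.32 by its probe set (log2 difference 1.07, adjusted p = 0.311), and fibrinogen Fgb was at 14.48 and 14.01 (-0.48, adjusted p = 0.599). The Ass1 probe set lay near the array medians in BKS, far below the average of the hepatocyte list, and may be a poor measure of this gene. The collagen Col3a1 was at 8.61 and 7.44 (log2 difference -1.17, adjusted p = 0.300) and Lrat, which stores retinol in stellate cells, at 5.33 and 5.89 (0.56, adjusted p = 0.420). The other Col3a1 and Lrat probe sets, with low means of 3.82 and 3.94, gave -0.18 and 0.04. Epcam (0.73, adjusted p = 0.807) and Sox9 (0.14, adjusted p = 0.810) had the smallest p of bile duct genes, and Cidea (0.53, adjusted p = 0.715) and Lep (0.20, adjusted p = 0.770) of adipocyte genes. Epcam and Cidea were high on NZO replicate 1, and without it their differences were -0.13 and 0.09. The other Epcam probe set gave -0.09. Adipoq, the adipocyte hormone, lay below the array medians, with 3.97 for BKS and 3.86 for NZO (adjusted p = 0.872), and was named for that level.

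**Figure D4:**
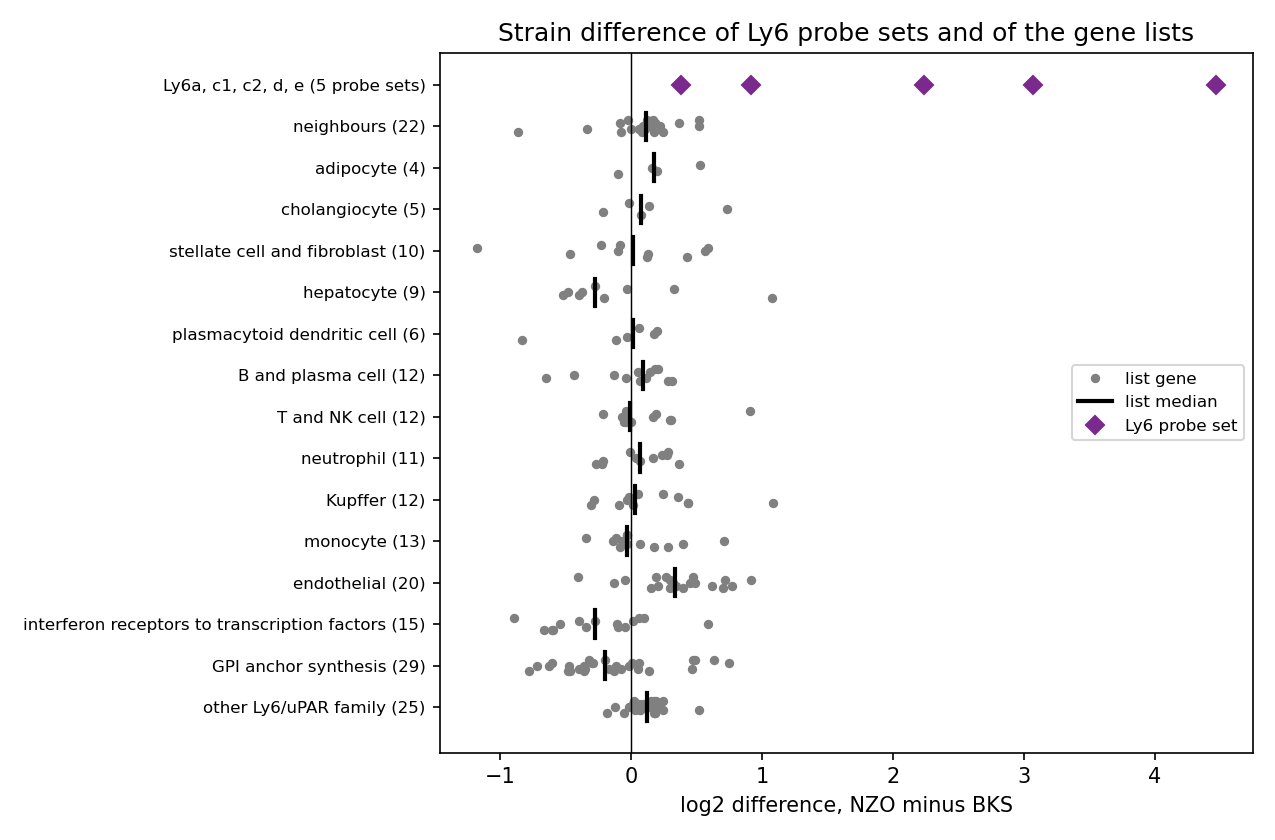
Log2 difference, NZO minus BKS (horizontal axis), of each measured gene (grey) in the 15 gene lists, with a black bar for each list's median and the number of genes in brackets, and of the 5 Ly6 probe sets (purple). The endothelial list has the highest median, 0.33, and the Ly6a, Ly6c and Ly6d probe sets lie to the right of every list gene, the highest of which is at 1.08.

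The genes whose signal across the 6 arrays was most like each Ly6 gene were sought among 2632 genes with a mean of at least 6 and an SD of at least 0.5. Likeness is Pearson's r over the 6 arrays, which share the strain split, and is given as a description. A strain difference raises the SD over the 6 arrays, so the filter itself favours genes that have one. Of the genes named below, Dntt, Fcgr3, Acot4, Gbp7 and Ccdc141 averaged 5.01 to 5.71 in BKS and passed the filter on the mean only through NZO. Their differences are therefore no support for the Ly6 values. For Ly6a they were Dntt (r = 0.998), Fcgr3 (r = 0.996) and Acot4 (r = 0.996), with log2 differences of 2.50, 2.58 and 2.17. The 2 other Dntt probe sets gave 0.34 and 1.23, and the other one of Acot4 gave 0.81. For Ly6c they were Gbp7 (r = 0.996), Vrk2 (r = 0.994) and Fhit (r = 0.992), with log2 differences of 1.76, 2.10 and 1.11. The other probe sets of Gbp7 and Vrk2 gave 1.01 and 1.33. For Ly6d they were Gbp7 again (r = 0.991), Ppil3 (r = 0.988) and Ccdc141 (r = 0.986), with 1.76, 1.69 and 2.02. The 5 other probe sets of Ccdc141 gave 0.05 to 0.27, and the other one of Ppil3 gave 0.27. For the higher-mean Ly6e probe set they were Apoc2 (r = 0.998), Tubb6 (r = 0.990) and Lmna (r = 0.989), with log2 differences of 0.30, 0.28 and 0.24. Without NZO replicate 1, the lowest NZO array at that Ly6e probe set, the Apoc2, Tubb6 and Lmna differences were 0.78, 0.81 and 0.74. Without NZO replicate 3 they were 0.06, -0.02 and -0.06. The other Tubb6 probe set gave -0.35, and the 4 others of Lmna gave -0.79 to 0.46.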

How the data were processed

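Liver RNA of 3 BKS and 3 NZO samples was hybridised to 1 expression array each. Per the submitters' processing notes, the authors used Affymetrix Expression Console and its RMA method, and the deposited numbers are on the log2 scale, 1 for each probe set. Versions are not given in the sources used here. Of 45101 probe sets, 64 controls were left out of tests. Of the rest 34945 had 1 gene symbol in the platform table, 932 had several and 9160 were not listed, among them the Ly6a probe set. Symbols were updated through gene IDs to GRCm38.p6 (34741 matched). The members and lists were chosen with earlier results of these data known.

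NZO was set against BKS over the 6 arrays by limma 3.58.1 under R 4.3.3, with lmFit, eBayes and strain as the only term. The two-sided p was Benjamini-Hochberg adjusted over 45037 probe sets and called below 0.05. Differences are NZO minus BKS. The fit was tested on simulated data. The number of arrays limits the precision. For lists, each of 18195 genes (Ly6c1 and Ly6c2 as 1) was read from its brightest probe set on average.

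Named were all Ly6 probe sets, per list up to 4 called genes (all where 5 or fewer) or, with none called, the 2 with the smallest p, and the 3 genes most correlated with each Ly6 gene, without predicted genes or clones. Others are marked. Alternatives changed the normalization, filter, probe set choice, variance model, array weights and arrays included. Figures used matplotlib 3.10.9 in Python 3.11.15, and alignments used Biopython 1.88.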

Additional observations from a re-analysis of the deposited data

How the results depend on the processing

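Over all probe sets, 86 were called higher and 105 lower in NZO. The counts were 417 and 919 with the number 1 arrays as a block, 623 and 569 among the 2 against 2 arrays without them, 320 and 284 when quantile normalization was repeated, 320 and 264 under cyclic loess, 155 and 159 with a variance trend and 319 and 510 with array weights. With 1 array left out they ran from 14 to 165 and from 12 to 107. Of the 5 Ly6 probe sets 2 were called, 5 among the 2 against 2 arrays and 0 to 3 with 1 array left out. The Ly6a log2 difference of 4.46 was 5.12 without the number 1 arrays and 3.15 for those 2 arrays alone, an alternative chosen after seeing the data. Between those arrays Ly6c stood at 2.30, Ly6d at 1.52 and the higher- and lower-mean Ly6e probe sets at -0.70 and -0.29. The lower-mean one was at 1.53 among the 2 against 2 arrays. Under repeated quantile normalization and cyclic loess, the higher-mean Ly6e difference of 0.38 was 0.69 and 0.74. In the same order the lower-mean one was 0.98 and 1.07, Ly6a 4.67 and 4.76, and Ly6c 3.17 and 3.23. Ly6d was 2.22 under both. The GPI anchor list had 1 call with the block (Pigz, higher) and the interferon list 1 with the block and 1 with cyclic loess (Irf2 both times). The marker genes together had 2 calls with the block, 7 among the 2 against 2 arrays, 1 each with either renormalization and 2 with array weights. The 7 were Pecam1, Fcgr2b and Ptprb of endothelium, Vsig4 of Kupffer cells, Ass1 of hepatocytes and Dcn and Rgs5 of stellate cells and fibroblasts, all higher in NZO. Under the other settings the marker calls were Pecam1, Stab2 and Ass1, higher, and Bst2, lower. The neighbours and the wider Ly6 family had no call under any alternative run. The cause of these shifts was not tested. No paired analysis was possible because the titles of the 2 strains share only the number 1. Signal close to or below the array medians limits Ly6d and Ass1 in BKS, Pecam1, and most of the wider family. It also limits most markers of monocytes, neutrophils, T and NK cells, and B and plasma cells.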
